A study of Rattus norvegicus with 2 samples.

Results

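The genes described here have splicing factor names and were measured in single colonies No.8 and No.4 of the rat glioma cell line C6. They were chosen by symbol: all genes measured whose symbol begins with Hnrnp, with Srsf, Sf3a, Sf3b or Prpf followed by a digit, or with Snrp. This gave 62 of the 18166 genes measured, of which 19 were Hnrnp, 11 Srsf, 8 Sf3, 13 Snrp and 11 Prpf genes. RefSeq types 3 of the 62 as pseudogenes. Spliceosome genes with other symbols are not members and are described as further lists. Total RNA of each colony went onto 1 whole-transcript array, so every value is a single measurement, no test or standard error was possible, and the number of arrays limits the precision. Colony No.8 and colony No.4 were both titled undifferentiated and grown in medium with 10% serum. The same treatment text stands with both: CHIR99021, an inhibitor of the kinase GSK3, at 20 µM with forskolin, which raises cyclic AMP, at 100 µM for 35 days. The labels leave unsettled whether the drugs had been given when the RNA was made, and they give no genotype. Each is a single colony of a long-cultured line, so a difference may belong to the colony, the culture or the hybridization, and these cannot be told apart.

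Introns are removed from pre-mRNA by the spliceosome, which assembles anew on each intron from small nuclear ribonucleoproteins (snRNPs) and many further proteins. SR proteins, named for stretches of arginine and serine, mostly bind exons and recruit the machinery, while heterogeneous nuclear ribonucleoproteins (hnRNPs) coat the transcript and often act against them. The balance of these groups sets which exons are kept, and several SR and hnRNP genes limit their own output by splicing in exons that lead to decay of the transcript. The values here are one level per gene, so exon use within a gene was not measured.

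The splicing factor genes were mostly somewhat higher in colony No.8 than in colony No.4, by small amounts. Of the 62 genes, 46 were higher in No.8 (74.2%, against 52.2% of all genes measured), 15 were lower and 1 had the same value in both. Their median difference, No.8 minus No.4 on the log2 scale, was 0.26, a 1.20-fold higher level, beside 0.03 over all genes measured. With an offset of 64 added on the linear scale, which shrinks the differences of dim genes, it came to 0.15, beside 0.01 over all genes. The middle 50% of the members lay between 0.01 and 0.43, and that of all genes measured between -0.18 and 0.25. Only 3 members, Srsf3, Srsf1 and Srsf6, reached a 2-fold higher level in No.8 (4.84%, against 1.81% of all genes), and none of the 62 was at least 2-fold lower, where 1.62% of all genes were. At 1.5-fold, 10 members were higher in No.8 (16.1%, against 6.77%) and 0 were lower (against 5.49%). With the offset, 6 of these 10 still passed 1.5-fold, and Hnrnpf, Sf3b3, Sf3b4 and Snrpf did not. At a difference of 0.32 on the log2 scale, 27 members were higher in No.8 (43.5%, against 18.8%) and 1 was lower (against 14.3%). These shares include dim genes. Among genes with a mean level at or above the median deposited value, 25 of 58 members were higher by 0.32 (43.1%, against 22.8%). At 1.5-fold, 10 of the 58 were higher (17.2%, against 9.61%). The largest difference in the other direction was that of Snrpa1, at -0.49.

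Many members lay at high deposited levels, so the same counts were taken among bright genes. Of the 62 genes, 27 had a mean level of at least 8 over both colonies, and 21 of these 27 were higher in No.8 (77.8%, against 47.2% of the 2304 genes measured at that level). Their median difference was 0.28, beside -0.03 for all genes at that level. Of the 27, 4 were at least 1.5-fold higher in No.8, where 7.68% of genes at that level were, and 0 were as much lower, where 8.85% were. Srsf1 was the 1 member at that level to pass 2-fold upward (against 1.74%), and 0 passed it downward (against 2.52%). Another 4 members lay below 4.33, the median deposited value, in both colonies: Hnrnpc-ps3, Snrpe-ps1, Snrpe-ps2 and Srsf12. With no detection call, such low levels may be background, and no fold is given for them.

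**Figure D1:**
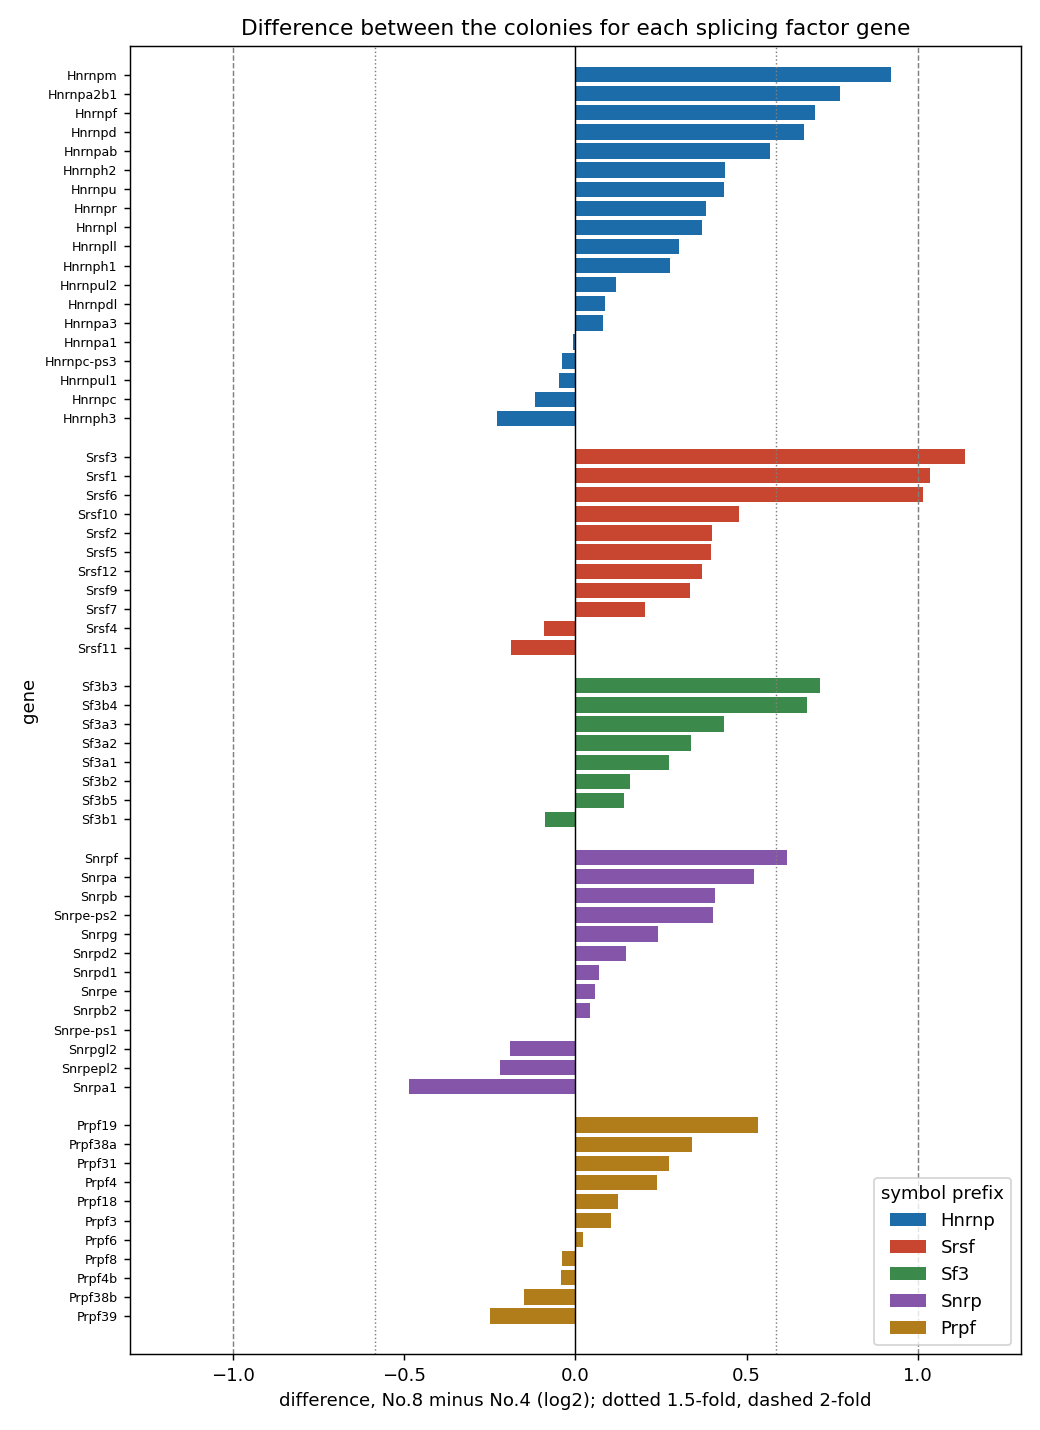
Difference between the colonies (No.8 minus No.4, log2) for each of the 62 splicing factor genes, grouped and coloured by symbol prefix, with dotted lines at 1.5-fold and dashed lines at 2-fold. Srsf3, Srsf1 and Srsf6 pass the 2-fold line, and no bar reaches 1.5-fold to the left.

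**Figure D2:**
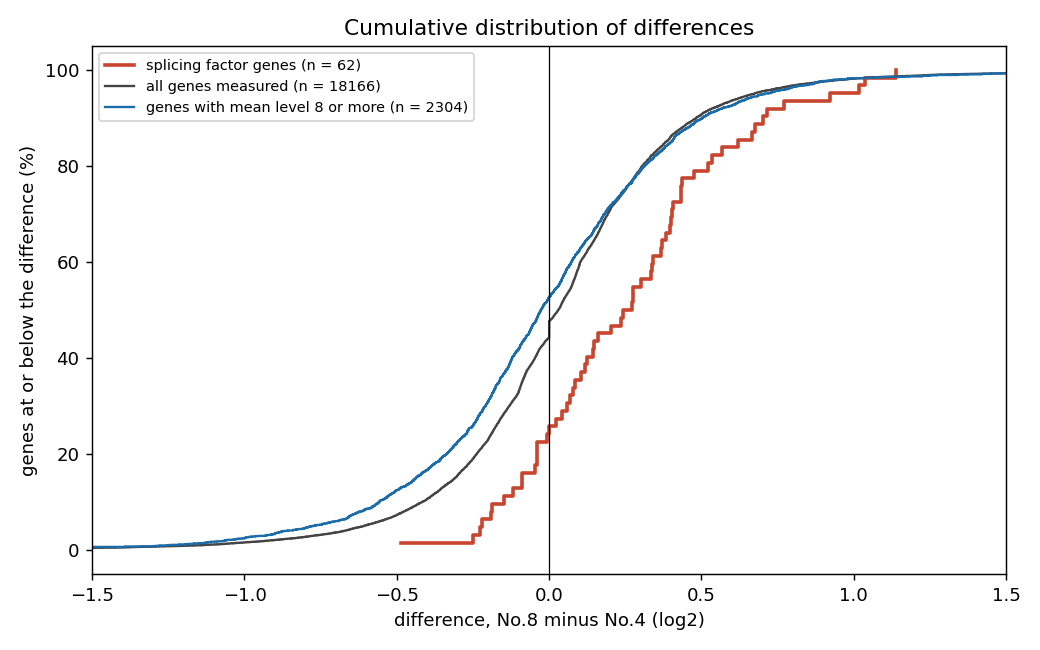
Percent of genes (vertical axis) at or below each difference (horizontal axis, No.8 minus No.4, log2) for the 62 splicing factor genes, all 18166 genes measured and the 2304 genes with a mean level of 8 or more. The splicing factor curve lies to the right of both others over most of the range, with its median at 0.26.

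The whole array gives the setting for these values. The deposited values of the 2 arrays had nearly equal medians, 4.31 in No.8 and 4.34 in No.4, so a change in total mRNA per cell would not be visible. For 635 of the 18166 genes the deposited values of both colonies were identical, among them the member Snrpe-ps1. Of 9 glial and glioma markers, 7 reached 4.33 in at least 1 colony, with Vim at 12.60 in No.8 and 12.57 in No.4 and S100b at 8.46 in No.8 and 8.24 in No.4. Sox2, at 8.44 in No.8 and 9.08 in No.4, and Cd44, at 8.43 in No.8 and 8.86 in No.4, went the other way. Gfap was at 5.17 in No.8 and 4.11 in No.4, and Fabp7 and Slc1a3 were below 4.33 in both colonies. Neuronal markers were below 4.33 in both colonies for 4 of 6 genes and microglial markers for 6 of 7. Of the neuronal exceptions, Map2 was at 8.50 in No.8 and 8.10 in No.4, and Syp differed by -0.07. The microglial exception, Tmem119, was at 6.19 in No.8 and 6.48 in No.4. Endothelial markers were below 4.33 in both colonies for 3 of 4 genes measured, while Tek was at 5.97 in No.8 and 4.84 in No.4. Their summed linear level was 106.7 in No.8 and 73.1 in No.4. Fibroblast markers were higher in No.8 for 4 of 5 genes (against 52.2% of all genes measured). Their summed linear level of 1671 in No.8 and 364.2 in No.4 rested mostly on Col1a1, while Dcn and Lum were below 4.33 in both. Oligodendrocyte markers were lower in No.8 for 4 of 4 genes (against 8042 of the 18166 genes measured), with summed linear levels of 93.6 in No.8 and 217.6 in No.4. This rested mostly on Olig2 (-2.14) and Cspg4 (-1.75, both No.8 minus No.4, log2), while Mbp and Mog differed by -0.04 and -0.11. In bulk RNA, fewer cells that express a gene and less of its RNA per cell cannot be told apart. Proliferation genes differed in the same direction as most splicing factors: all 16 listed genes were higher in No.8, against 52.2% of all genes measured. Their median difference was 0.53, with a range of 0.13 to 1.17. This list was chosen with earlier results of these data known, so its direction is a description only. The part of these marker and proliferation genes in the splicing factor result was not tested.

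Genes of SR proteins showed the largest differences among the members. Srsf3, the smallest SR protein, was at 8.47 in No.8 and 7.33 in No.4, a difference of 1.14 (2.20-fold), and 1 array each gives no spread to set it against. Srsf1, the founding SR protein and a proto-oncogene product in human and mouse cells, was at 9.30 in No.8 and 8.27 in No.4 (difference 1.04, or 2.05-fold). Srsf6, which has a pair of RNA recognition motifs like Srsf1, was at 7.77 in No.8 and 6.75 in No.4 (difference 1.02, or 2.02-fold). Srsf1 and Srsf6 lie just past the 2-fold limit. When the differences were centred on the median of all genes, Srsf6 came to 0.99, and with an offset of 64 added on the linear scale none of the 3 passed (Srsf1 0.903, Srsf3 0.895, Srsf6 0.715).

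The remaining SR genes were closer between the colonies. Srsf10, which represses splicing when dephosphorylated, was at 8.37 in No.8 and 7.89 in No.4. Srsf2, which binds exonic enhancers, was at 9.56 in No.8 and 9.16 in No.4. Srsf5 was at 9.34 in No.8 and 8.94 in No.4. The differences of these 3 genes ran from 0.40 to 0.48. Srsf9, a close relative of Srsf1, was at 7.40 in No.8 and 7.06 in No.4, a difference of 0.34 against the 1.04 of Srsf1. Srsf7, a close relative of Srsf3 that carries a zinc knuckle, was at 7.15 in No.8 and 6.94 in No.4, a difference of 0.20 against the 1.14 of Srsf3. Srsf4, a relative of Srsf5 and Srsf6, was at 7.32 in No.8 and 7.41 in No.4, so these 3 relatives spanned -0.09 to 1.02. Srsf11 was at 7.87 in No.8 and 8.06 in No.4, the lowest difference of the family at -0.19. In all, 9 of the 11 Srsf genes were higher in No.8 (81.8%, against 52.2% of all genes measured), with a median difference of 0.40. These 9 include Srsf12, whose low level may be background. Close relatives differed by unlike amounts, and 1 array each gives no spread to set this against. Values of genes with many copies are uncertain: RefSeq lists 10 pseudogenes named for Srsf3 and 7 for Srsf7, and 27 of the 62 members have at least 1. Of the other members past 1.5-fold, Hnrnpf has 4, Hnrnpm 3, Srsf6, Hnrnpd and Snrpf 2 each, and Sf3b4 1. Srsf1, Hnrnpa2b1 and Sf3b3 have 0.

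The 250 bases before the transcription start are shown for the 3 SR genes that passed 2-fold and for Srsf11, the SR gene with the lowest difference, so that both ends of the family can be read side by side. They were read from RefSeq's promoter table (GRCr8), 5′ to 3′ on the gene's strand, and capitals mark matches to any of 8 searched motifs on either strand. The windows are chr20:7093335-7093584 (plus strand) for Srsf3, chr10:73336248-73336497 (plus) for Srsf1, chr3:172008822-172009071 (plus) for Srsf6 and chr2:249760259-249760508 (minus) for Srsf11.
Srsf3: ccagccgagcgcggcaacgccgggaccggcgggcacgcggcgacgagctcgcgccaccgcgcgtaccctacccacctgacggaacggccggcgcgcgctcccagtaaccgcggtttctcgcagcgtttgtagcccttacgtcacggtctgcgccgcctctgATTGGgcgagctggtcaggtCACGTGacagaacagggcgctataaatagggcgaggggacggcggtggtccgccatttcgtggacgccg
Srsf1: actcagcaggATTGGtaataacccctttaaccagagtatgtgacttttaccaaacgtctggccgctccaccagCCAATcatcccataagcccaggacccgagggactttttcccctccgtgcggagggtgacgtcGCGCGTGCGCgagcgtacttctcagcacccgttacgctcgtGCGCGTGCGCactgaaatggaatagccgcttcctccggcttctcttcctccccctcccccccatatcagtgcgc
Srsf6: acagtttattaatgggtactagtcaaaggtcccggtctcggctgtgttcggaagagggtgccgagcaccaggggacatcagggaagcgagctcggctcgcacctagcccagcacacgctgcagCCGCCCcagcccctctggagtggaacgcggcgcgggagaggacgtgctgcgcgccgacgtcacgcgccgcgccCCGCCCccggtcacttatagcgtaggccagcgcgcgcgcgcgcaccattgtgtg
Srsf11: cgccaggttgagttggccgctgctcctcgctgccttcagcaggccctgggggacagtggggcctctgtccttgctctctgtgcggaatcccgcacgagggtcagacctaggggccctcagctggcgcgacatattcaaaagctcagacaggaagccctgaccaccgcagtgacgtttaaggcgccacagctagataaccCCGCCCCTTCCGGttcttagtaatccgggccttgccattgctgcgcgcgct

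The motifs searched were CCAAT (the CCAAT box), GGGCGG (the GC box), CCGGAAG (bound by ETS factors), the NRF1 motif by its name, CACGTG (the E-box, bound by MYC and related factors), TGACGTCA (the cyclic AMP response element), TTTCCCGC (bound by E2F factors) and CTTTGAT (bound by TCF factors). Only full matches were counted, and sequences that depart from a motif by a single letter were not. A match is a description of letters and not a binding site. The Srsf3 window held a CCAAT box 89 to 85 bases before the start and an E-box 69 to 64 bases before it. The Srsf1 window held 2 CCAAT boxes, one of them 177 to 173 bases before the start, and 2 NRF1 matches, the nearer one 74 to 65 bases before it. The Srsf6 window held 2 GC boxes, the nearer one 54 to 49 bases before the start. In the Srsf11 window a GC box ran straight into an ETS match, 51 to 39 bases before the start. None of the 8 motifs was held by all 3 SR genes past 2-fold, and Srsf3 and Srsf1 shared the CCAAT box.

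Promoters were listed for 56 of the 62 genes, with a median of 58.0% G and C, beside 56.8% over 14503 promoters of genes measured and 62.4% over 1918 promoters of genes with a mean level of 8 or more. ETS matches were found in 28.6% of the members' promoters, against 7.74% of all 27457 promoters of the same length and 15.6% of those of genes at level 8 or more. NRF1 matches were found in 21.4%, against 4.17% and 11.6% in the same comparison sets, and CCAAT boxes in 50.0%, against 34.3% and 39.6%. The GC box was found in 55.4% of members, against 32.4% of all promoters and 65.7% of those at level 8 or more. E-boxes were found in 12.5% of members, against 5.79% and 8.71%, and E2F matches in 5.36%, against 0.86% and 2.40%. Over the 14503 promoters of genes measured, the shares lay above those of all promoters. They were 10.8% for ETS, 6.25% for NRF1, 35.2% for CCAAT, 45.4% for the GC box, 6.87% for the E-box and 1.29% for E2F. The cyclic AMP element and the TCF match, motifs of the pathways that forskolin and CHIR99021 act on, were each found in 1 of the 56 promoters (1.79%). The cyclic AMP element was in 1.70% of all promoters and 3.23% of those of genes at level 8 or more, and the TCF match in 3.18% and 1.67%. Over promoters of genes measured, these 2 motifs were found in 2.23% and 2.74%. ETS matches stood in 2 of the 10 members past 1.5-fold and in 14 of the other 46. E-boxes stood in 3 of the 10 and in 4 of the other 46. NRF1 matches stood in 3 of the 10 and in 9 of the other 46. GC boxes stood in 3 of the 10 and in 28 of the other 46, and CCAAT boxes in 6 of the 10 and in 22 of the other 46. The cyclic AMP element, the E2F match and the TCF match stood in 0 of the 10 and in 1, 3 and 1 of the other 46.

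**Figure D3:**
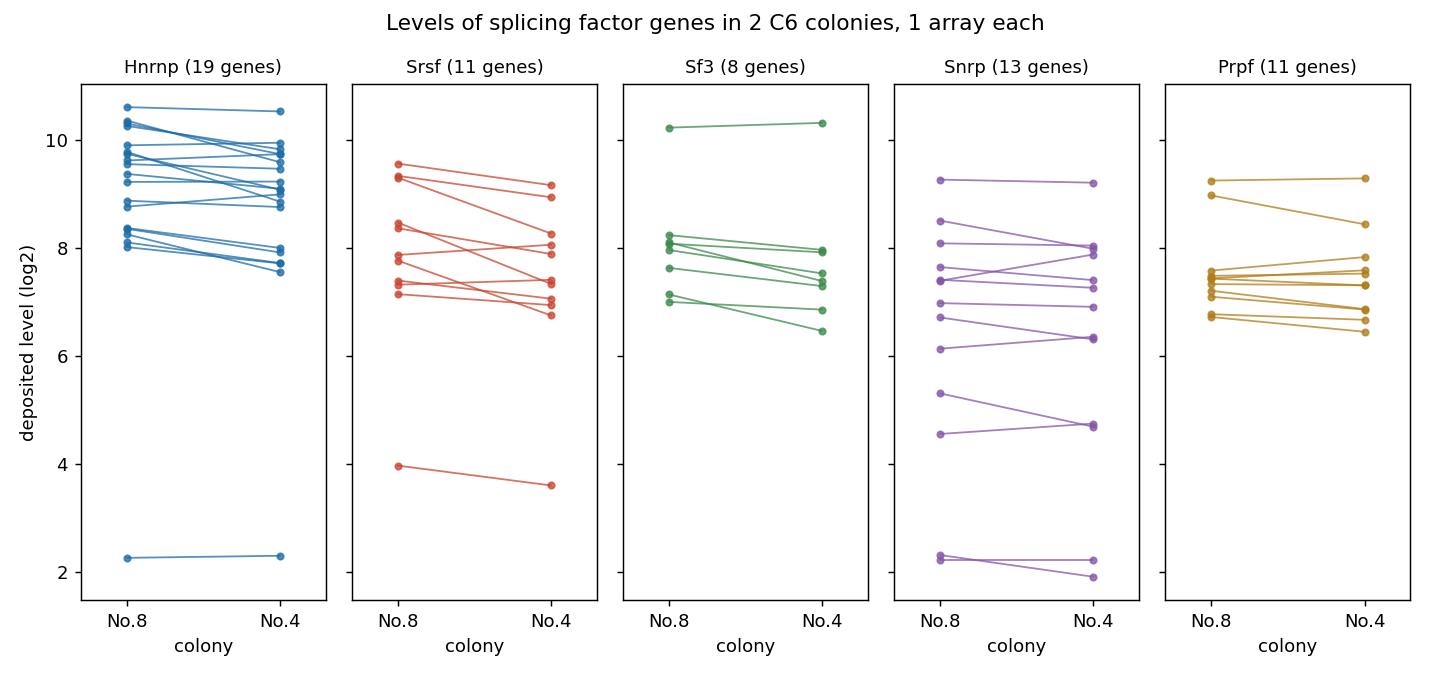
Deposited log2 level (vertical axis) of each splicing factor gene in colony No.8 (left) and colony No.4 (right), 1 line per gene and 1 panel per symbol prefix. Most lines in the Srsf and Sf3 panels are higher at the No.8 end, while most Prpf lines run nearly flat.

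Among the hnRNP genes, those of hnRNP M, A2/B1, F and D differed most. Hnrnpm, whose product binds GU-rich RNA and regulates exon use in the adhesion receptor CD44 in human cells, was at 9.78 in No.8 and 8.86 in No.4 (difference 0.92, or 1.90-fold). Hnrnpa2b1, which in rat oligodendrocytes carries Mbp mRNA along cell processes besides its part in splicing, was at 10.36 in No.8 and 9.59 in No.4 (difference 0.77, or 1.71-fold). Hnrnpf, which binds runs of G near splice sites, was at 8.26 in No.8 and 7.55 in No.4 (difference 0.70, or 1.63-fold). All 3 were higher in No.8 by less than 2-fold. Hnrnpd, also known as AUF1, which binds AU-rich elements and governs mRNA decay, was at 9.75 in No.8 and 9.08 in No.4 (difference 0.67, or 1.59-fold). The related Hnrnpab was at 10.31 in No.8 and 9.74 in No.4 (0.57), just short of 1.5-fold.

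Close relatives often differed in size of change. Hnrnpdl, the neighbour of Hnrnpd on chromosome 14 with no other protein-coding gene between them (RefSeq, GRCr8), was at 9.55 in No.8 and 9.47 in No.4, a difference of 0.09 where Hnrnpd had 0.67. Hnrnpa1, a frequent antagonist of Srsf1 at 5′ splice sites, was at 9.23 in both colonies. Hnrnpa3 was at 10.61 in No.8 and 10.53 in No.4. Of the A/B group, Hnrnpa2b1 alone of these 3 reached 1.5-fold. RefSeq lists 50 pseudogenes named for Hnrnpa1, and probes may read several copies, so its values are uncertain. A second, dimmer feature of Hnrnpa3 was at 5.92 in No.8 and 6.29 in No.4, a difference of -0.37 where the brighter one gave 0.08. Within the F/H group, Hnrnph2 was at 8.36 in No.8 and 7.92 in No.4, and Hnrnph1 at 9.37 in No.8 and 9.10 in No.4. Hnrnph3 was at 8.77 in No.8 and 8.99 in No.4, so this group spanned -0.23 to 0.70.

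The other hnRNP genes lay between these. Hnrnpu, a nuclear scaffold protein that binds chromatin-associated RNA, was at 10.26 in No.8 and 9.83 in No.4. Hnrnpr was at 8.10 in No.8 and 7.72 in No.4. Hnrnpl, which binds CA repeats, was at 8.37 in No.8 and 8.00 in No.4. These differences were 0.37 to 0.43. Hnrnpll, a relative of Hnrnpl that regulates splicing of CD45 in lymphocytes, differed by 0.30. Hnrnpul2 and Hnrnpul1, relatives of Hnrnpu, differed by 0.12 and -0.05. Hnrnpc, which binds U-tracts, was at 9.62 in No.8 and 9.74 in No.4. In all, 14 of the 19 Hnrnp genes were higher in No.8 (73.7%, against 52.2% of all genes measured), with a median difference of 0.30. Of these genes, 4 reached 1.5-fold (21.1%, against 6.77%).

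SF3A and SF3B, complexes of the U2 snRNP, hold the branch site of the intron. Of their 8 genes, 7 were higher in No.8 (87.5%, against 52.2% of all genes measured), with a median difference of 0.31. At a mean level of 8 or more, 2 of 3 genes were higher in No.8 (against 47.2% at that level), with a median of 0.16. Sf3b3, a scaffold subunit, was at 8.10 in No.8 and 7.39 in No.4 (difference 0.72, or 1.64-fold). Sf3b4, which touches RNA upstream of the branch site, was at 7.14 in No.8 and 6.46 in No.4 (difference 0.68, or 1.60-fold). With the offset of 64, Sf3b3 came to 0.55 and Sf3b4 to 0.43. Sf3b1, the branch-site subunit often mutated in human blood cancers, was at 10.23 in No.8 and 10.32 in No.4, so the subunits of SF3B spanned -0.09 to 0.72. The 3 SF3A genes all lay higher in No.8: Sf3a3 by 0.43, Sf3a2 by 0.34 and Sf3a1 by 0.27. Sf3b2 and Sf3b5 differed by 0.16 and 0.14.

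The Snrp genes hold the ring of Sm proteins around the snRNA and some proteins of single snRNPs. All 6 Sm ring genes measured were higher in No.8 (against 52.2% of all genes measured), with a median difference of 0.20. Snrpf, a ring protein, was at 5.31 in No.8 and 4.69 in No.4 (difference 0.62, or 1.54-fold), and with an offset of 64 on the linear scale this difference came to 0.21. Snrpb was at 6.71 in No.8 and 6.31 in No.4, and Snrpg at 7.65 in No.8 and 7.41 in No.4. Snrpd2, Snrpd1 and Snrpe differed by 0.15, 0.07 and 0.06. A second Snrpe feature was at 8.52 in No.8 and 8.62 in No.4, a difference of -0.10. The ring genes thus differed little, Snrpf and Snrpb apart.

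Genes for proteins of single snRNPs went in different directions. Snrpa, which binds a stem loop of the U1 snRNA, was at 8.51 in No.8 and 7.99 in No.4 (0.52). Snrpa1, a U2 protein, was at 7.39 in No.8 and 7.88 in No.4 (difference -0.49, or 1.40-fold lower in No.8). Snrpb2, with which it binds the U2 snRNA and which is a relative of Snrpa, was at 8.09 in No.8 and 8.05 in No.4. The copies Snrpepl2 (-0.22) and Snrpgl2 (-0.19) were lower in No.8, and the identifier of Snrpgl2 was not found in the RefSeq table. Of the 13 Snrp genes, 9 were higher in No.8 (69.2%, against 52.2% of all genes measured). Their median difference was 0.07, near the 0.03 of all genes measured.

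Prpf genes differed little between the colonies. These encode proteins of the U4/U6.U5 tri-snRNP and of later steps, and the human forms of several are mutated in retinitis pigmentosa. Of 11 genes, 7 were higher in No.8 (63.6%, against 52.2% of all genes measured), with a median difference of 0.10. At 1.5-fold, 0 were higher (against 6.77%) and 0 were lower (against 5.49%). With 11 genes, such counts of 0 lie near those shares. Prpf19, a ubiquitin ligase that activates the assembled spliceosome, was at 8.97 in No.8 and 8.44 in No.4 (difference 0.53, or 1.45-fold). Prpf8, the large protein at the catalytic centre, was at 9.25 in No.8 and 9.29 in No.4. The other tri-snRNP genes Prpf31, Prpf4, Prpf3 and Prpf6 differed by 0.27, 0.24, 0.10 and 0.02. Prpf38a was higher in No.8 by 0.34, whereas its relative Prpf38b, at 7.44 in No.8 and 7.59 in No.4, differed by -0.15. Prpf18, which acts in the second step of splicing, differed by 0.13, and the kinase gene Prpf4b by -0.04. Prpf39, related to a U1 snRNP protein of yeast, was at 7.58 in No.8 and 7.83 in No.4 (-0.25), the lowest of the group.

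**Figure D4:**
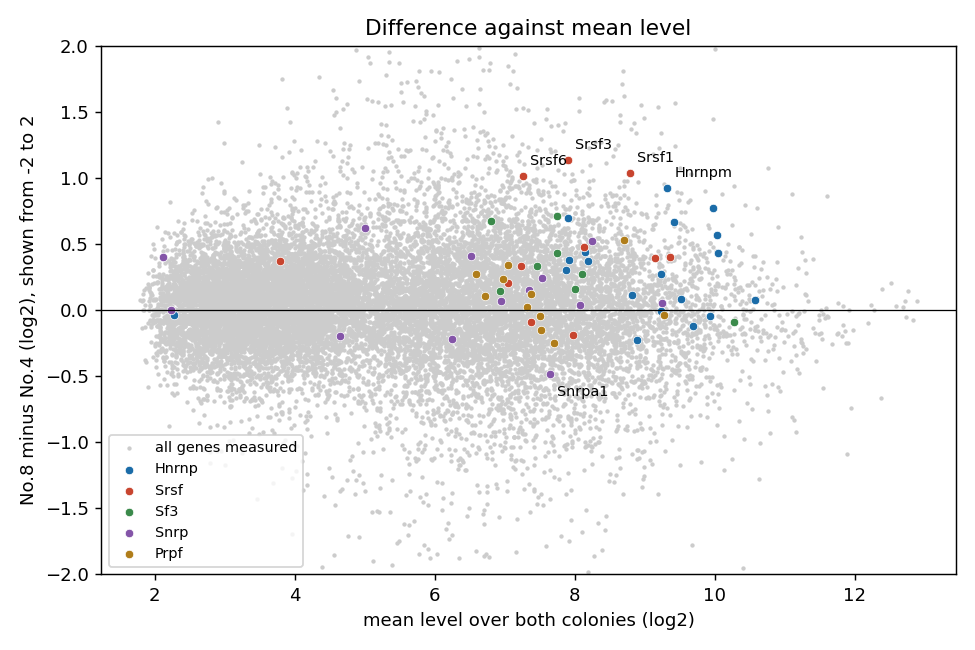
Difference between the colonies (vertical axis, No.8 minus No.4, log2, shown from -2 to 2) against the mean level over both (horizontal axis, log2) for all genes measured in grey and the splicing factor genes in colour by prefix. Srsf3, Srsf1, Srsf6 and Hnrnpm stand at the upper edge of the coloured points and Snrpa1 at the lower edge.

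Splicing genes outside the symbol rule were near the background in their share higher in No.8 and in their median. In 8 further lists of splicing and RNA-binding genes, 105 of 189 measured genes were higher in No.8 (55.6%, near the 52.2% of all genes measured), with a median difference of 0.07. At 1.5-fold, 15 of the 189 were higher in No.8 (7.94%, against 6.77%) and 5 were lower (2.65%, against 5.49%). None was 2-fold higher in No.8 (against 1.81%) and 2 were 2-fold lower (against 1.62%). These were Cwc22, which links splicing to the exon junction complex, at 4.91 in No.8 and 6.50 in No.4 (-1.60), and Snrnp48, a protein of the minor spliceosome, at 6.42 in No.8 and 7.44 in No.4 (-1.02). The difference between the members and these lists was not tested.

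By list, the early spliceosome and snRNP genes had 26 of 39 higher in No.8 (66.7%, against 52.2% of all genes measured), with a median difference of 0.13. The largest were the RNA helicase gene Ddx39a, at 7.25 in No.8 and 6.49 in No.4 (0.76), the tri-snRNP helicase gene Ddx23 (0.67), Ddx39b (0.67) and Eftud2, the GTPase of the U5 snRNP (0.65). Luc7l (-0.52) and Lsm4 (-0.36) were lower in No.8. The exon junction complex had 6 of 8 genes higher (median 0.28), led by the mRNA export adaptor gene Alyref, at 8.95 in No.8 and 8.34 in No.4 (0.60), Magoh (0.59) and Rbm8a (0.46), while Magohb differed by -0.28 and Casc3 by -0.26. The median of this list came to 0.10 over its genes with a mean level of 8 or more (Casc3, Rnps1 and Alyref), and to 0.18 with the offset. Genes of the Prp19 complex and the catalytic steps were split evenly, 14 higher and 14 lower (50.0% higher, against 52.2%), with a median of -0.02. Over those with a mean level of 8 or more (Cdc5l, Rbm22, Slu7, Dhx8 and Wbp11) the median was 0.17. Bud31 differed by 0.75, Ppil1 by 0.69 and Plrg1 by 0.47. Cwc15 (-0.64) and Dhx35 (-0.35) were lower in No.8. The list thus held the largest difference of all 8 lists, Cwc22, beside genes that differed in the opposite direction.

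Genes of kinases that phosphorylate SR proteins went in both directions. Srpk1 was at 7.65 in No.8 and 7.33 in No.4, and Srpk2 at 7.82 in No.8 and 7.80 in No.4. Clk1 was at 9.04 in No.8 and 9.16 in No.4. Clk4 was lower in No.8 by more (-0.57), and Clk3 by -0.33. The SR-related and SR kinase list had 12 of 25 genes higher in No.8 (48.0%, against 52.2% of all genes measured), with a median of -0.03 and a mean of 0.08. Scaf4 (0.77), Arglu1 (0.57) and Tra2a (0.52) stood at the upper end, and Rsrc1 was at -0.40.

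Splicing regulators that differ between tissues had 18 of 40 genes higher in No.8 (45.0%, against 52.2% of all genes measured) and 20 lower. Their median difference was -0.01. Ptbp1, the regulator that represses neuronal exons in glia and other cells outside neurons, was at 9.57 in No.8 and 9.45 in No.4. The neuronal counterpart Ptbp2 differed by -0.01. Neither moved by as much as the median of the members. Rbfox1, a regulator best known from neurons and muscle, was at 8.00 in No.8 and 8.66 in No.4 (-0.66), Mbnl2 at 9.49 in No.8 and 9.92 in No.4 (-0.43), and Celf4 differed by -0.40. Qki, a regulator of glial splicing, was at 9.88 in No.8 and 9.60 in No.4. Rbm10 and Tia1 were each higher in No.8 by 0.67, and Elavl2 by 0.68 at levels of 4.96 in No.8 and 4.28 in No.4, near the median of all values. In 14 of the 40 genes, among them Nova2, Elavl3, Elavl4 and Esrp1, both colonies lay below 4.33.

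Among other hnRNP-type proteins, 14 of 23 genes were higher in No.8 (60.9%, against 52.2% of all genes measured), with a median of 0.09. Over the genes of this list with a mean level of 8 or more, 36.4% were higher in No.8 (against 47.2% at that level). The median of those genes was -0.01. Sfpq, a paraspeckle protein, was at 9.66 in No.8 and 8.92 in No.4 (0.74), and Taf15 at 7.55 in No.8 and 6.82 in No.4 (0.73). Pcbp1 differed by 0.48. Fxr1 (-0.49), Pcbp3 (-0.25) and Ewsr1 (-0.19) were lower in No.8. The genes for snRNP assembly and snRNA export had 11 of 18 higher in No.8 (61.1%, against 52.2% of all genes measured), with a median of 0.10. The median of 0.42 over those with a mean level of 8 or more rested on Strap and Prmt5 alone. Gemin4 differed by 0.60, Strap by 0.53 and Phax by 0.52. Coil, which encodes the Cajal body protein coilin, was at 4.84 in No.8 and 5.60 in No.4 (-0.76), and Tgs1 and Gemin8 differed by -0.39 and -0.34. Nonsense-mediated decay is the pathway that removes transcripts with the autoregulatory exons of SR and hnRNP genes. Its genes had 4 of 8 higher in No.8 (50.0%, against 52.2% of all genes measured) and a median difference of 0.00. Smg5 differed by 0.36, Upf3b by 0.25 and Upf3a by 0.08. Smg6 (-0.26), Smg9 (-0.14) and Upf1 (-0.07) were lower in No.8.

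**Figure D5:**
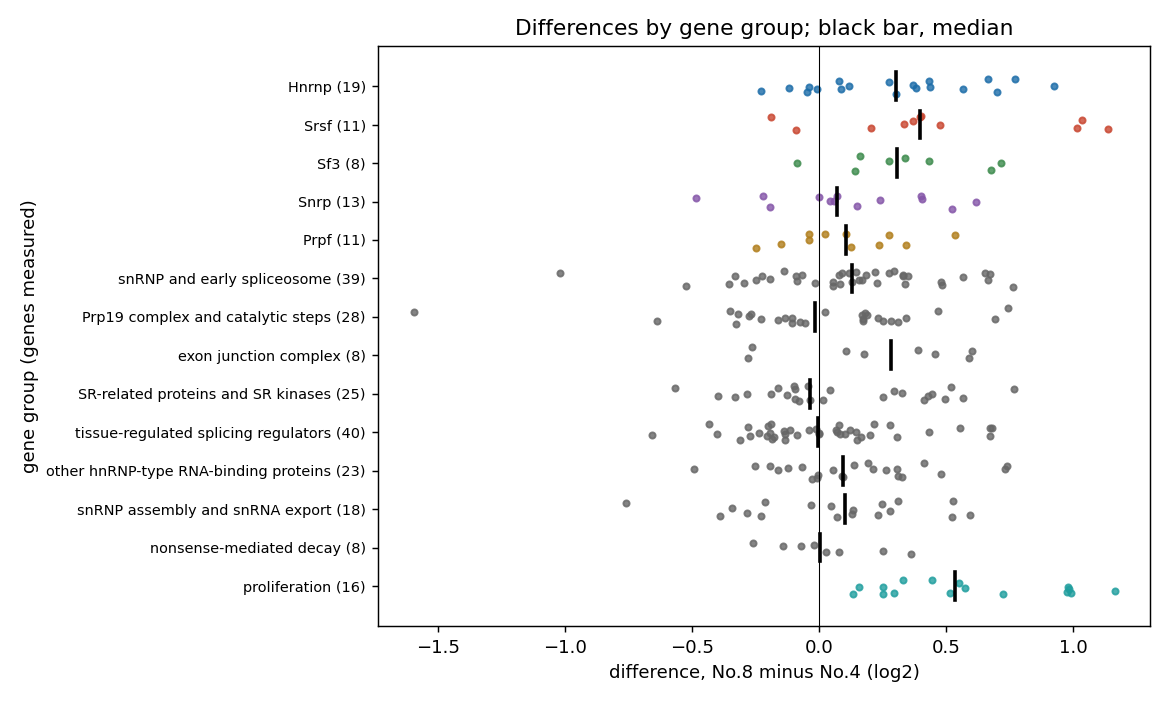
Difference between the colonies (horizontal axis, No.8 minus No.4, log2) for each gene of the 5 symbol prefixes, the 8 further lists and the proliferation list, with the number of genes measured in brackets and a black bar at the median; vertical scatter within a row has no meaning. The Srsf median (0.40) and the proliferation median (0.53) lie furthest to the right, and the medians of 3 of the further lists lie below 0.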

How the data were processed

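Total RNA of each colony was labelled with biotin and hybridized to 1 array, per the labels' protocols. The values deposited by the authors were taken as log2 levels; base 2 was inferred from their maximum of 13.3, too large for another log of a 16-bit signal. Nothing on software, background correction or normalization is given in the sources used here. Of 36685 features, the 18511 with exactly 1 gene symbol were kept, and the feature with the highest mean level stood for a gene. The 62 genes had 64 features; 2 features with several symbols, 1 of which matched the rule, were left out. RefSeq (GRCr8) held 61 of the 62 identifiers under the same symbol. Levels depend on each feature's probes, so levels of different genes were not ranked.

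With 1 array per colony no test was made, and counts stand beside those over all genes measured. The members and lists were chosen with earlier results of these data known, and the motifs, the complexes and the promoters shown after values had been seen. Named are, per prefix, members past 1.5-fold, the 3 largest differences in each direction and close relatives; per further list, genes past 2-fold and the 3 largest differences in each direction. Eftud2, Srpk1, Srpk2, Clk1, Ptbp1, Ptbp2 and Qki, and the genes listed as below 4.33, were named after their values were seen. Motifs were searched in the 250 bases before the first start listed per gene. The planned protein comparison was not made. Summaries were tested on simulated data with planted differences (Python 3.11.15, pandas 2.3.3, statsmodels 0.14.6). Alternatives were centring, quantile normalization, loess, an offset of 64, the mean over features, level limits, other folds, means and the removal of pseudogenes.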

Additional observations from a re-analysis of the deposited data

How the results depend on the processing

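No paired analysis was possible because each colony had 1 array. The median difference of all members fell to 0.15 with the offset of 64, against 0.26 as deposited, and lay between 0.22 and 0.28 under the other alternatives. Their share higher in No.8 was between 71.0% and 77.8%. With quantile normalization it was 77.4%, where the share of all genes measured was 56.7%. With loess it was 74.2%, where that of all genes was 49.6%, against 52.2% as deposited. At a mean level of 8 or more, the median difference was 0.25 for Prpf (2 genes) and 0.16 for Sf3 (3 genes). At that level 100% of the 3 Snrp and 4 Srsf genes were higher in No.8, against 47.2% of all genes. Of the 3 Snrp genes, Snrpb2 and Snrpe differed by only 0.04 and 0.06, and a second Snrpe feature differed by -0.10. The 3 members at least 2-fold higher in No.8 became 2 with centring or loess, 1 at a mean level of 8 or more (Srsf1) and 0 with the offset. At 1.5-fold, 10 members were higher, of which 6 passed with the offset and 9 with loess, and at a difference of 0.32, the smallest limit tried, 27 were higher and 1, Snrpa1, was lower. For the 189 further splicing genes, 15 were higher in No.8 at 1.5-fold (7.94%, against 6.77% of all genes measured). At a difference of 0.32, 41 were higher (21.7%, against 18.8%). By these limits 5 (2.65%, against 5.49%) and 18 (against 14.3% of all genes measured) of the further genes were lower. Their 2 genes at least 2-fold lower became 0 at a mean level of 8 or more and 0 with the offset, whose construction shrinks differences of dim genes. Centring, quantile normalization, loess and the offset each moved the median of all genes by less than 0.1. The labels used here give no replicate, so the size of technical variation is not known.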
